A study of Mus musculus with 3 samples.

Results

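The genes described here are the 76 whose symbol in the array annotation is Prss, Klk or Tmprss followed by a number, out of 20738 named genes, and they encode mostly serine proteases of the trypsin kind. They comprise 36 Prss genes, 24 kallikreins (Klk) and 16 transmembrane serine proteases (Tmprss), and were measured by 122 of the 31465 named features (spots on the array). Of these genes 63 rested on 1 feature, 9 on 2 or 3 features and 4 on 10 features. RNA of whole proximal jejunum from mice lacking Sox4, through villin-Cre, was set against RNA of whole proximal jejunum from wild-type mice on 3 two-colour arrays, each with a different knockout mouse. Dyes were not swapped: knockout RNA was labelled with Cy5 throughout and wild-type RNA with Cy3. Villin drives Cre in the intestinal epithelium, so muscle, immune and other cells of the whole tissue keep Sox4, and the labels do not state the age, sex or strain of the mice or whether wild-type RNA was pooled.

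Trypsin-like proteases cut proteins after arginine or lysine, and nearly all are made as inactive precursors that another protease has to cleave. In the upper small intestine enteropeptidase, the product of Tmprss15 on the brush border, cleaves trypsinogen from the pancreas, and the trypsin so formed activates the other pancreatic enzymes. Kallikreins release kinins from kininogen, shed skin cells or process growth factors, while many Prss genes of the mouse are known from the testis, from mast cells and basophils, or from few studies. Serpins and Kunitz and Kazal inhibitors hold these enzymes in check, and the receptor PAR2 (gene F2rl1) is one of their signalling targets. Symbols do not follow function throughout: Prss16 encodes a peptidase of another family, related to prolylcarboxypeptidase, and Prss8, Prss21 and Prss41 encode enzymes held in the membrane by a lipid anchor although they count here among the secreted members.

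All values are read as log2 ratios of Sox4 knockout over wild type, so a value of 1 stands for a doubled signal in the knockout and a negative value for a lower one. Errors are SDs over n = 3 arrays, and adjusted p-values come from limma's moderated test of the mean ratio against 0 over all 20738 genes, with a threshold of 0.05. Ratios hold no level, so whether a member is expressed in the jejunum, and the tissue's own markers, could not be checked from them. Sox4 itself had -0.66, 0.18 and -0.46 on arrays 1, 2 and 3 (mean -0.31 ± 0.44), below 0 on arrays 1 and 3 and above 0 on array 2, and its 3 features disagreed, so this check does not settle the direction of the ratios. That direction, knockout over wild type, is taken as Cy5 over Cy3, which no source states. The Y-linked gene Eif2s3y had -7.44, -6.99 and -7.40 and Xist had 1.77, 1.85 and 1.51, so the sex of the mice differed along with genotype, and the effects of sex and of Sox4 on any member cannot be told apart. In whole tissue, fewer cells of a type and less RNA per cell cannot be told apart either.

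Of the 76 members, 1 passed the test, Prss38, which was higher in the knockout. That is 1.32% of the members, where 0.328% of all genes passed in either direction, 0.106% higher and 0.222% lower. No member passed as lower in limma's test, although 10 members were lower at an unadjusted p under 0.05. At that unadjusted level 24 members stood out, 14 higher and 10 lower, or 18.4% and 13.2% of the members, beside 26.3% of all genes, 12% higher and 14.3% lower. The median of the members' mean ratios was 0.04, beside -0.03 over all genes, and array medians of the members were 0.0012, 0.18 and 0.05 on arrays 1, 2 and 3, beside -0.03, -0.03 and -0.001. The group was thus centred close to 0, with members spread from -1.16 to 1.97. Ratios had the same sign on all arrays for 35 members (46.1%), 20 above 0 and 15 below, beside 50.6% of all genes.

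**Figure D1:**
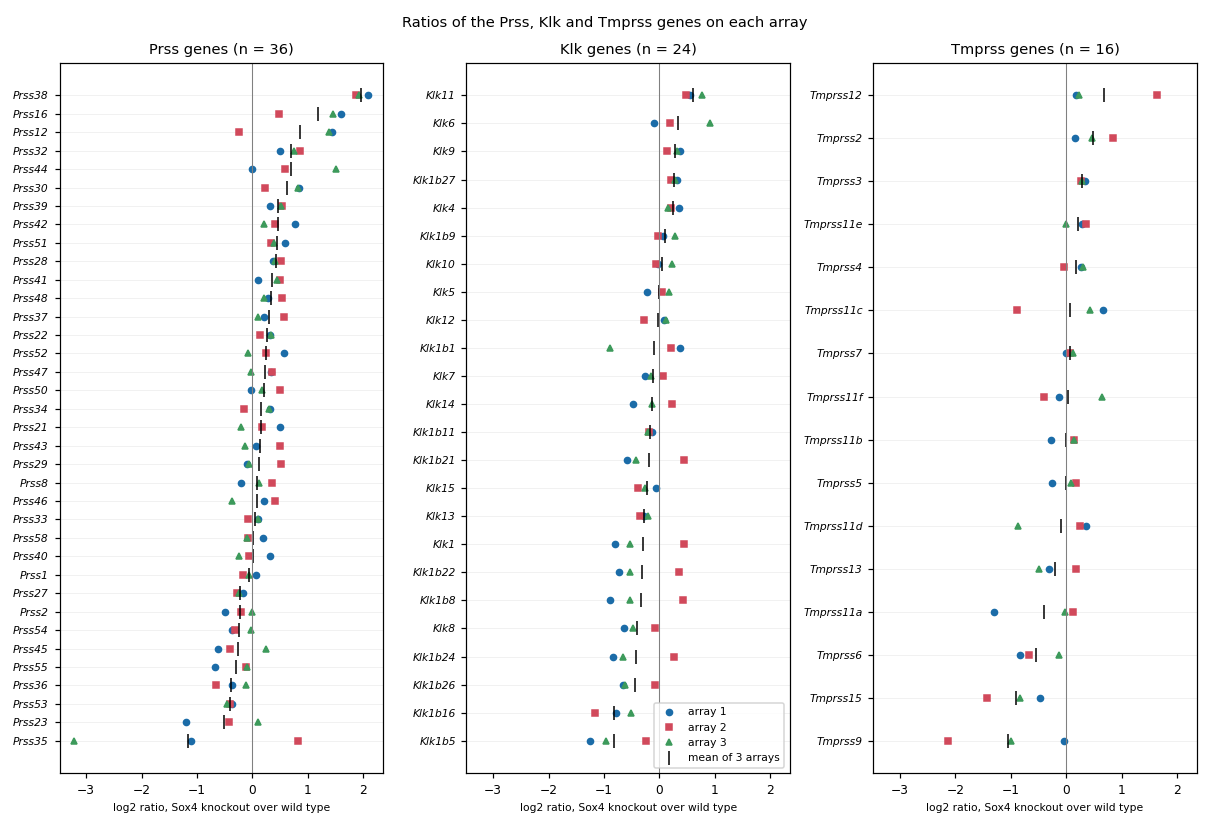
Log2 ratio of Sox4 knockout over wild type for each Prss, Klk and Tmprss gene (rows, ordered by mean) on arrays 1, 2 and 3 (coloured points), with the mean of the arrays as a black tick. Prss38 lies near 2 on every array, whereas Prss12, Klk1 and 5 of the 11 Klk1b genes have array 2 on the other side of 0 from arrays 1 and 3, and Prss35 and Tmprss9 spread widely.

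Prss38 was higher in knockout than in wild-type RNA, with sex and dye differing along with genotype. Its ratios were 2.09, 1.87 and 1.93 on arrays 1, 2 and 3, a mean of 1.97 ± 0.11 or 3.91-fold (95% interval 1.68 to 2.25, adjusted p = 0.00957). All 3 arrays were high and lay within a narrow range. The gene rested on 1 feature, and with 2 arrays it kept its size but passed only without array 2 (adjusted p = 0.0342), not without array 1 (1.90, adjusted p = 0.112) or array 3 (1.98, adjusted p = 0.173). The 6 nearest measured neighbours on the chromosome had means from -0.39 to 0.48 and none passed. Wnt9a, the next measured gene on one side, a Wnt ligand gene, had -0.39 ± 0.13, and Snap47 on the other side, a gene of the SNAP family of membrane fusion proteins, had 0.28 ± 0.13. Their adjusted p-values were 0.122 and 0.207. A promoter is shown for this gene because it passed, and for Prss32 because it came next among the members by its adjusted p. Both run 5′ to 3′ along the gene, from 250 bases before to 50 after the annotated start, and come from RefSeq for mouse build GRCm38.p6, Prss38 from chr11:59375604-59375903 on the minus strand and Prss32 from chr17:23853522-23853821 on the plus strand. Capitals mark matches to the letters searched for, ACAATG in Prss32 and none in Prss38.
Prss38: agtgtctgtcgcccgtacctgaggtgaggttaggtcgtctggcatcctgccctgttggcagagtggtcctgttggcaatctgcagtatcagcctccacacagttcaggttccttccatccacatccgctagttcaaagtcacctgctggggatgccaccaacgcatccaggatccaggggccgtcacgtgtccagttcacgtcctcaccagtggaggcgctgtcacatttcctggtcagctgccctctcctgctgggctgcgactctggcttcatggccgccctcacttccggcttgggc
Prss32: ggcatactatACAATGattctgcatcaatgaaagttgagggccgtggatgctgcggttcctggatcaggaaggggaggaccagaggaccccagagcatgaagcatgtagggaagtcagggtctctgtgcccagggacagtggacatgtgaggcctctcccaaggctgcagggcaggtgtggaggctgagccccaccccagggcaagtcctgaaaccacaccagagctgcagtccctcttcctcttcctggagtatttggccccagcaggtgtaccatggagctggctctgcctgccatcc

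Behind Prss38 came a set of members that did not pass but, except for Prss12, lay above 0 on all arrays. Prss32, whose gene lies among the tryptase-like genes, had 0.49, 0.86 and 0.76 (mean 0.70 ± 0.19, adjusted p = 0.0687), high on each array. Klk11, a kallikrein known from skin, had 0.55, 0.49 and 0.76 (mean 0.60 ± 0.14, adjusted p = 0.0761), and its arrays differed by less than their distance from 0. Prss16, known for its role in the thymic cortex, where it shapes the peptides shown to T cells, had 1.60, 0.48 and 1.45 (mean 1.18 ± 0.61, adjusted p = 0.0773). Array 2 was the low one for Prss16, and without that array the gene had 1.53 and passed (adjusted p = 0.0492). Prss12, which encodes neurotrypsin, a neuronal protease that cleaves agrin, had the same arrangement in stronger form. Its ratios were 1.43, -0.25 and 1.39, high on arrays 1 and 3 and slightly below 0 on array 2 (mean 0.86 ± 0.96, adjusted p = 0.196). Prss30, known from epidermis and transporting epithelia, followed with 0.84, 0.23 and 0.82 (mean 0.63 ± 0.34, adjusted p = 0.0986), again lowest on array 2.

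**Figure D2:**
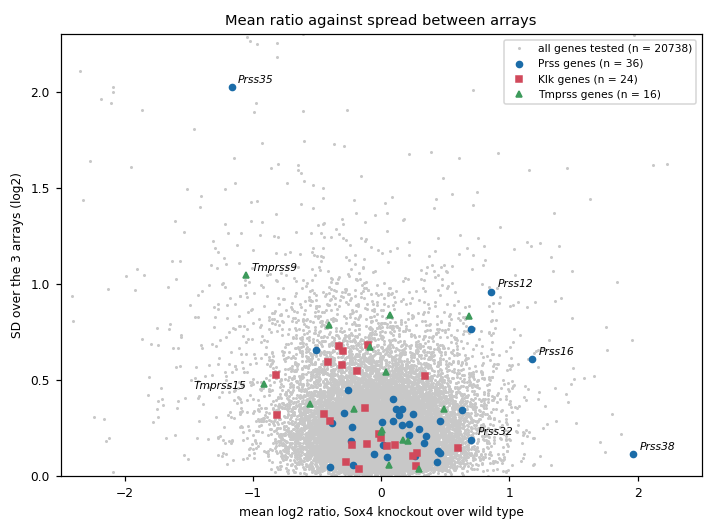
Mean log2 ratio of knockout over wild type (horizontal) against the SD over 3 arrays (vertical) for all 20738 genes (grey) and for the Prss, Klk and Tmprss genes (coloured); 28 genes lie outside the axes. Prss38 combines a mean of 1.97 with an SD of 0.11, while Prss16, Prss12, Tmprss9 and Prss35 have large means with large spreads.

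Of the digestive members, trypsin and its activator, none passed, and only the activator was below 0 on all arrays. Tmprss15, encoding enteropeptidase, had -0.48, -1.42 and -0.84 on arrays 1, 2 and 3 (mean -0.91 ± 0.48, 1.88-fold lower, 95% interval -1.41 to -0.41, adjusted p = 0.0828), below 0 on each array and lowest on array 2. The trypsinogen genes among the members, Prss1 and Prss2, stood nearer to 0. Prss1 had 0.06, -0.17 and -0.06 (mean -0.05 ± 0.12, adjusted p = 0.788) from features that differed in sign, with means of -0.19 and 0.08, and Prss2 had -0.50, -0.20 and 0.003 (mean -0.23 ± 0.25, adjusted p = 0.337). Trypsinogens are made in pancreatic acinar cells, so the acinar markers are given beside them. A mean below 0 was found for 16 of these 20, where 11107 of 20738 genes had one. Array medians of the list were -0.33, -0.24 and -0.33, its median was -0.27 and no marker passed. The 4 markers above 0 included Gp2 (0.61 ± 0.23, adjusted p = 0.084) and Ctrb1 (0.41 ± 0.29, adjusted p = 0.163), both above 0 on all arrays. The acinar markers closest to passing were Try5 (trypsin 5, -1.72 ± 0.46, adjusted p = 0.0504), the lipase gene Pnlip (-1.24 ± 0.44, adjusted p = 0.0634) and the zymogen granule gene Sycn (-1.10 ± 0.40, adjusted p = 0.064). Try5 is a trypsinogen gene too, as is Try4, with -1.13, -2.53 and -1.29 (mean -1.65 ± 0.77, adjusted p = 0.0676). Unlike Prss1 and Prss2, both were far below 0 on all arrays. The part of acinar cells in the values of Prss1 and Prss2 was not tested. The promoter of Tmprss15 is shown as that of the epithelial member that starts the digestive cascade (chr16:79091048-79091347, minus strand, RefSeq, GRCm38.p6), with capitals at ATTAAC and TTTAAA.
Tmprss15: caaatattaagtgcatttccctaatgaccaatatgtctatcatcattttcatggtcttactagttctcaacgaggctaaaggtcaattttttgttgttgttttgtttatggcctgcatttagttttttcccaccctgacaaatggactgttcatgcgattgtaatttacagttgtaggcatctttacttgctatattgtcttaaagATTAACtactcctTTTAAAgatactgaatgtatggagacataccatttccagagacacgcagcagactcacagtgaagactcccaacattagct

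The other Tmprss enzymes, which sit in the plasma membrane by an N-terminal anchor and act at the cell surface, lay on both sides of 0 and none passed. Tmprss2, an epithelial protease that also primes viral spike proteins, had 0.16, 0.85 and 0.46 (mean 0.49 ± 0.35, adjusted p = 0.142), above 0 on each array and highest on array 2. Tmprss4, another epithelial surface protease, had 0.26, -0.04 and 0.30 (mean 0.17 ± 0.19, adjusted p = 0.421), and thus lay near 0 on array 2. Tmprss6, the liver protease that lowers hepcidin by cleaving hemojuvelin, had -0.84, -0.68 and -0.13 (mean -0.55 ± 0.37, adjusted p = 0.129), all below 0. Tmprss9, a polyprotein with several protease domains, was near 0 on array 1 and far below 0 on array 2 (-0.04, -2.13 and -0.99, mean -1.05 ± 1.05, adjusted p = 0.163). Tmprss12, known from the testis, had its highest ratio on array 2, with 0.18, 1.64 and 0.23 (mean 0.68 ± 0.83, adjusted p = 0.226), so its mean rested on array 2. Tmprss3, required for hearing, averaged 0.29 ± 0.04 (adjusted p = 0.171), but its features disagreed, with means of 0.69 and -0.11. Tmprss5 and Tmprss7 had 0.00033 ± 0.23 and 0.06 ± 0.06, and Tmprss13 had -0.21 ± 0.35 with array 2 above 0.

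The 6 Tmprss11 genes, proteases of airway, mouth and other squamous epithelia that lie next to each other on the chromosome, showed no shared direction. Arrays on both sides of 0 were found for 5 of them, and the means ran from -0.41 for Tmprss11a to 0.21 for Tmprss11e. Tmprss11a had -1.31, 0.11 and -0.03, lower on array 1 alone, and Tmprss11c had 0.66, -0.89 and 0.44, lower on array 2 alone. Tmprss11d had 0.36, 0.25 and -0.86, with array 3 as the low one, while Tmprss11f had -0.14, -0.40 and 0.64, with array 3 as the high one. Their median SD over arrays was 0.61, beside 0.22 over all genes, and the SD exceeded the mean of each gene but Tmprss11e. That gene had 0.28, 0.35 and 0 (mean 0.21 ± 0.18, adjusted p = 0.335), above 0 on arrays 1 and 2 and listed at exactly 0 on array 3. The Tmprss11b features differed in sign, with means of 0.39 and -0.38. Markers of keratinocytes and squamous epithelium had 2 of 8 higher at an unadjusted p under 0.05 (12% of all genes), none past the threshold, and a median of 0.15. They were split in direction, with 4 above 0 on all arrays and 3 below 0 on all arrays. The latter were Lor (-0.25 ± 0.06), Ivl (-0.32 ± 0.31) and Krt10 (-0.17 ± 0.13).

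Klk1 (true tissue kallikrein, which frees kinins) and its 11 mouse Klk1b paralogs lay mostly below 0 and shared much of their pattern across arrays. Klk1 had -0.80, 0.44 and -0.53 (mean -0.30 ± 0.65, adjusted p = 0.485), lower on arrays 1 and 3 and higher on array 2. The same signs were found for Klk1b8, Klk1b21, Klk1b22 and Klk1b24, with -0.88, 0.43 and -0.53 for Klk1b8 and -0.84, 0.26 and -0.66 for Klk1b24. In all, 6 of the 12 genes had array 2 opposite in sign to the other arrays (50%), the other one being Klk1b9 with 0.07, -0.03 and 0.29 and thus the reverse signs, beside 17.6% of all genes. Medians of the group were -0.69, 0.22 and -0.53 on arrays 1, 2 and 3. Klk1b1 differed, with 0.37, 0.22 and -0.89, low on array 3 alone. The mean ratio of Sox4 also had array 2 opposite to the others. Its lowest feature, however, was below 0 on every array (-1.21, -0.72 and -0.93). The other Sox4 features had -0.82, 0.03 and -0.43, and 0.06, 1.23 and -0.02. Array 2 was also opposite for 9 of 15 mast cell and basophil, 4 of 9 goblet and 3 of 8 Paneth markers. Among acinar and enterocyte markers it was opposite for 3 of 20 and 2 of 10. The part of any of these in the kallikrein values was not tested.

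Further Klk1b genes were below 0 on all arrays. Klk1b5 had -1.25, -0.23 and -0.97 (mean -0.82 ± 0.52, 1.76-fold lower, adjusted p = 0.0998) and Klk1b16 had -0.78, -1.15 and -0.52 (mean -0.82 ± 0.32, adjusted p = 0.0723), which differed in that array 2 was the least low for Klk1b5 and the lowest for Klk1b16. Klk1b26 averaged -0.44 ± 0.32 (adjusted p = 0.156) over 3 features that disagreed in sign. One had 0.41, 0.24 and -0.02 and another -1.13, -0.19 and -0.82. The feature annotated under the older name Egfbp2 had -1.24, -0.27 and -1.0 and differed from the Klk1b5 feature by at most 0.033 on any array. Klk1b27 was an exception to the group, with 0.31, 0.22 and 0.29 (mean 0.27 ± 0.05, adjusted p = 0.190), above 0 on all arrays and close together. Among the 13 features of these genes, leaving out the 10 features of Klk1b11, 10 of 78 pairs lay within 0.2 of each other on every array, beside 2 of 66 pairs among Klk4 to Klk15, a limit chosen after the values were seen. These paralogs are close copies of each other, whether a feature of one also binds RNA of another was not tested, and the value of any single Klk1b gene is uncertain.

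**Figure D3:**
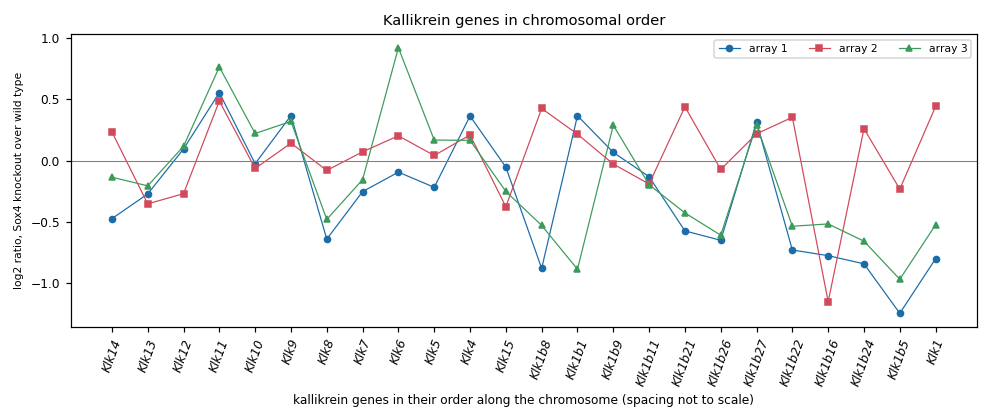
Log2 ratio of knockout over wild type (vertical) of the 24 kallikrein genes in their order along the chromosome (horizontal, spacing not to scale) on arrays 1, 2 and 3. From Klk1b8 to Klk1 array 2 often lies above the other arrays, while Klk11, Klk9, Klk4 and Klk1b27 are above 0 on all arrays.

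Likeness within this group can be read from its promoters, shown for Klk1, for Klk1b5 as the lowest of the group and for Klk1b27 as the highest. Sequences are from RefSeq for GRCm38.p6, all on the plus strand, at chr7:44225110-44225409 for Klk1, chr7:44216224-44216523 for Klk1b5 and chr7:44052040-44052339 for Klk1b27. The 12 promoters aligned to each other over 201 bases or more with 77.6% to 98.1% identity, the highest for Klk1b21 and Klk1b24 (259 of 264 bases). Klk1b5 and Klk1b27 shared 234 of 273 aligned bases (85.7%), although one lay below 0 and the other above 0 on every array. In the Klk1 window the like stretch starts 92 bases further on than in that of Klk1b5 (176 of 206 aligned bases, 85.4%), and the annotated start of Klk1 lies further upstream. The letters TTTAAA, chosen after the sequences were read and in capitals here, stood in 11 of the 12 windows (91.7%), all but that of Klk1, beside 11.6% of the 16416 promoters of genes tested. The Klk1 window ends on the letters that come just before the match in Klk1b5, so it does not reach the place where the match would stand. The other capitals mark CTTTGT, a Sox match on the opposite strand.
Klk1: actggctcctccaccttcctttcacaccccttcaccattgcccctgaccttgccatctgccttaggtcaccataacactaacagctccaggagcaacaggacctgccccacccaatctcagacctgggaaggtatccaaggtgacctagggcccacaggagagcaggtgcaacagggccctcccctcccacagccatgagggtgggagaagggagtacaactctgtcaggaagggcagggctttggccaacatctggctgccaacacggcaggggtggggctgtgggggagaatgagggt
Klk1b5: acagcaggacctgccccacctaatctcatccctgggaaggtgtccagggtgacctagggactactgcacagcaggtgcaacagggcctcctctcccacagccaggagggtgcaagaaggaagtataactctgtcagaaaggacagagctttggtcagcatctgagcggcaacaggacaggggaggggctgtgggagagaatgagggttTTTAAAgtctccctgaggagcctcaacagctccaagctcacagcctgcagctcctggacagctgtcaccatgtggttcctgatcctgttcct
Klk1b27: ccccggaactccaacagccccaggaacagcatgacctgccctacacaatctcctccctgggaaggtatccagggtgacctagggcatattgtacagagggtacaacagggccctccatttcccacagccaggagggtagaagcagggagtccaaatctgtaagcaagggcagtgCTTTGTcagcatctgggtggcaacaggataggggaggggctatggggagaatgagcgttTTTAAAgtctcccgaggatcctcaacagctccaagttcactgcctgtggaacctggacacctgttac

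The kallikreins Klk4 to Klk15, best known from skin, enamel and brain, lay on both sides of 0, with 5 means above and 7 below. Their median was -0.01 and none passed, while the median of their absolute means was 0.24, beside 0.21 over all genes. Beside Klk11, the members with the same sign on all arrays were Klk9 (0.28 ± 0.12) and Klk4, the enamel protease (0.25 ± 0.10), above 0, and Klk8, Klk13 and Klk15, below 0. Klk8, encoding the brain and skin protease neuropsin, had -0.64, -0.08 and -0.48 (mean -0.40 ± 0.29, adjusted p = 0.168), and thus was near 0 on array 2. Klk13 had -0.27, -0.35 and -0.21 (mean -0.28 ± 0.07, adjusted p = 0.190), close together on all arrays, and Klk15 averaged -0.23 ± 0.16. Klk5, Klk7 and Klk14, which together shed the outer skin layer, had -0.0037 ± 0.20, -0.11 ± 0.17 and -0.13 ± 0.35, each with arrays on both sides of 0. Klk6 was high on array 3 alone, with -0.10, 0.20 and 0.92, and Klk10 and Klk12 had 0.04 ± 0.16 and -0.02 ± 0.22. Neighbours thus differed in sign: Klk8 below 0 lies next to Klk9 above 0.

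Among the 10 Prss genes near the mast cell tryptases, 9 had a mean above 0, and the median was 0.21, beside -0.03 over all genes. None passed, and 4 were higher at an unadjusted p under 0.05, Prss32, Prss30, Prss28 and Prss41, beside 12% of all genes in that direction. Prss28, which with Prss29 encodes an implantation serine protease of the uterus, had 0.37, 0.51 and 0.42 (mean 0.43 ± 0.07, adjusted p = 0.0992), while Prss29 averaged 0.12 ± 0.35 with array 2 high. Prss41 had 0.11, 0.50 and 0.44 (mean 0.35 ± 0.21, adjusted p = 0.172), above 0 throughout, and Prss22, an epithelial tryptase, had 0.31, 0.14 and 0.34 (mean 0.26 ± 0.11, adjusted p = 0.214). Prss27, encoding marapsin, was the member below 0, with -0.16, -0.27 and -0.23 (mean -0.22 ± 0.06, adjusted p = 0.259). Prss34 encodes a protease of basophils and mast cells and had 0.33, -0.15 and 0.31 (mean 0.16 ± 0.27, adjusted p = 0.50). Markers of those cells lay mostly below 0, with array medians of -1.19, 0.18 and -0.56 and none past the threshold. Their means were below 0 for 13 of 15, where 11107 of 20738 genes were. The closest marker was Fcer1a, the IgE receptor chain, with -4.20, -0.57 and -3.50 (mean -2.76 ± 1.92, adjusted p = 0.0935), far below 0 on the arrays where Prss34 was above 0. It was followed by Ms4a2, another chain of that receptor (-2.27 ± 1.64), and the mast cell carboxypeptidase gene Cpa3 (-2.35 ± 2.11). The mast cell protease genes Mcpt2, Mcpt4, Cma2 and Mcpt1 were similarly low, with -2.18 ± 1.96, -2.11 ± 1.94, -2.09 ± 2.02 and -1.86 ± 1.91. Each of these was slightly above 0 on array 2. In all, 7 of the 15 markers were lower at an unadjusted p under 0.05, beside 14.3% of all genes. Some further markers were nearer to 0 on average. The tryptase genes Tpsab1, Tpsb2 and Tpsg1 had -0.10 ± 0.52, 0.28 ± 0.61 and -0.15 ± 0.31, and the protease gene Mcpt8 had 0.02 ± 0.45. The part of mast cells and basophils in the value of Prss34 was not tested. Prss21, encoding testisin, and Prss33 had 0.16 ± 0.35 and 0.05 ± 0.10.

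Prss genes known mainly from the testis or with little known role lay on both sides of 0. The neighbours Prss42, Prss44, Prss43, Prss45, Prss46 and Prss50 had a median of 0.18 and none passed. Prss42 had 0.77, 0.41 and 0.20 (mean 0.46 ± 0.29, adjusted p = 0.136) and was the one of them with the same sign on all arrays. Prss44 had 0, 0.59 and 1.51 (mean 0.70 ± 0.76, adjusted p = 0.197), its value on array 1 being listed at exactly 0. Prss45 was the one of them with a mean below 0, with -0.62, -0.41 and 0.24 (mean -0.26 ± 0.45, adjusted p = 0.414). Prss39, a protease of the sperm acrosome, had 0.33, 0.54 and 0.51 (mean 0.46 ± 0.12, adjusted p = 0.0967), above 0 on each array and with a small spread, and its neighbour Prss40 averaged 0.01 ± 0.28. Prss51 had 0.59, 0.34 and 0.40 (mean 0.45 ± 0.13, adjusted p = 0.102), also above 0 on each array, next to Prss52 (0.25 ± 0.33) and Prss55, which was below 0 on each array with -0.67, -0.11 and -0.09 (mean -0.29 ± 0.33, adjusted p = 0.291). Prss54 had -0.38, -0.30 and -0.03 (mean -0.24 ± 0.18, adjusted p = 0.283), also below 0. Prss47 and Prss48 had 0.22 ± 0.21 and 0.34 ± 0.17.

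Further Prss genes lay on both sides of 0 without passing. Prss8, encoding prostasin, which activates the epithelial sodium channel, had -0.21, 0.36 and 0.13 (mean 0.09 ± 0.29, adjusted p = 0.711), and thus gave no direction. Its neighbours Prss36 and Prss53, which encode enzymes with several protease domains in 1 chain, were both below 0 on each array. Prss36 had -0.36, -0.66 and -0.12 (mean -0.38 ± 0.28, adjusted p = 0.176) and Prss53 had -0.36, -0.40 and -0.45 (mean -0.40 ± 0.05, adjusted p = 0.107), with the arrays of Prss53 close together. Prss23, a secreted protease of vessels and ovary, had -1.21, -0.41 and 0.10 (mean -0.51 ± 0.66, adjusted p = 0.264), lower on array 1 and near 0 on array 3. Prss35, a protease-like gene known from the ovary, had the widest spread of all members. Its ratios were -1.11, 0.83 and -3.22 (mean -1.16 ± 2.02, adjusted p = 0.341), strongly lower on array 3, lower on array 1 and higher on array 2, so its mean, the lowest of the members, is smaller than its SD.

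The 4 members with 10 features show how far single features differ on 1 array. Prss37, a testis gene needed for sperm to migrate, had features between 0.30 and 0.76 on array 2 (median 0.60), 10 of 10 above 0. On array 1 they ran from -0.07 to 0.36, 9 of 10 above 0, and on array 3 from -0.23 to 0.50, 6 of 10 above 0. Its array means were 0.20, 0.57 and 0.11 (mean 0.30 ± 0.24, adjusted p = 0.236). The features of Klk1b11 ran from -1.24 to 0.37 on array 3, an SD over features of 0.53, while the 3 array means differed little (-0.13, -0.19 and -0.20). Prss58 had features from -0.83 to 0.47 on that array and an average of 0.01 ± 0.16, and Tmprss7 had features from -0.38 to 0.41. Across these genes and arrays the SD over features ran from 0.13 to 0.53. For a member that rests on 1 feature this spread is part of its value and cannot be seen. Values of exactly 0 were also more frequent than their neighbours: array 1 held 870 of them, against 50 at 0.001 and 74 at -0.001, and 5 of the members' values were such zeros. The reason was not tested.

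**Figure D4:**
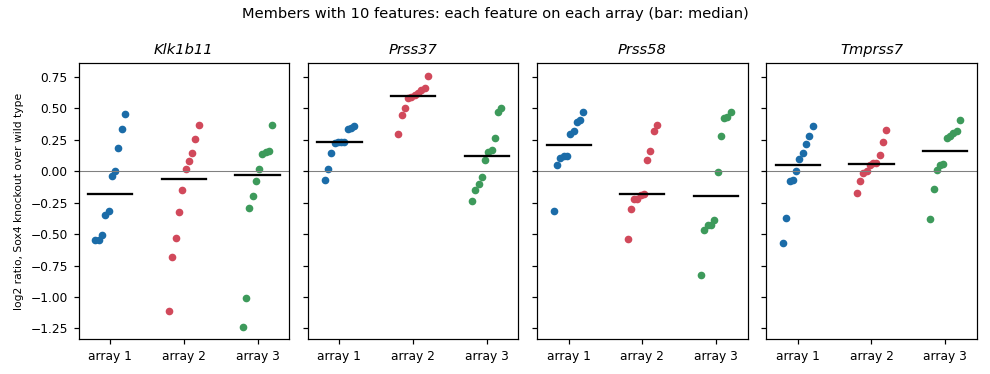
Log2 ratio of knockout over wild type (vertical) of each of the 10 features of Klk1b11, Prss37, Prss58 and Tmprss7 on arrays 1, 2 and 3, with the median as a bar. Prss37 features on array 2 lie between 0.30 and 0.76, while those of Klk1b11 on array 3 run from -1.24 to 0.37.

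Secreted members (60 Prss and Klk genes) and membrane-bound members (16 Tmprss genes) had nearly the same centre. Medians were 0.03, 0.21 and -0.01 for secreted members on arrays 1, 2 and 3, and -0.02, 0.13 and 0.10 for membrane-bound members. The difference between the medians, secreted minus membrane-bound, was 0.05, 0.08 and -0.11 on the 3 arrays, a mean of 0.00 ± 0.10, so its sign changed between arrays. With means in place of medians the difference was 0.09, 0.24 and 0.08 (mean 0.14 ± 0.09). Of the secreted members, 12 were higher and 7 lower at an unadjusted p under 0.05, against 2 higher and 3 lower of the membrane-bound members, beside 12% higher and 14.3% lower of all genes. Within the secreted members the symbols differed more. Prss genes had a median of 0.16 with 26 of 36 means above 0. Klk genes had a median of -0.15 with 7 of 24 above 0, where 9623 of 20738 genes were. Klk1 and its Klk1b paralogs had 2 of 12 above 0 (median -0.30), and Klk4 to Klk15 had 5 of 12 (median -0.01). The contrast of Prss and Klk genes was noticed in the data, the genes of each symbol share sequence and neighbourhood, and no test was made of it.

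**Figure D5:**
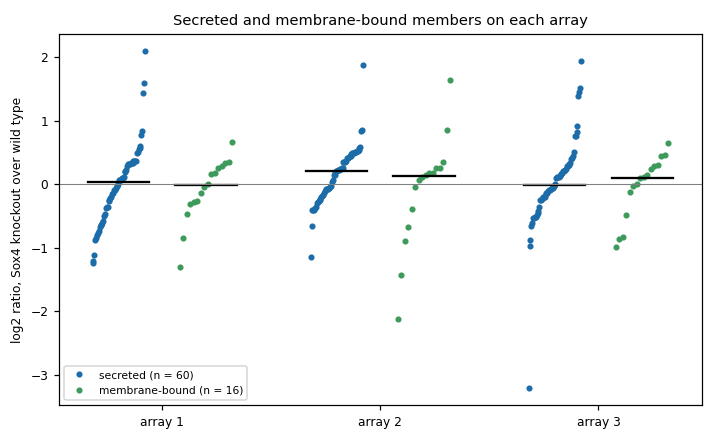
Log2 ratio of knockout over wild type (vertical) of 60 secreted and 16 membrane-bound members on arrays 1, 2 and 3, with the median of each group as a bar. Medians of both groups lie between -0.02 and 0.21 on every array, and the point near 2 on each array is Prss38.

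Other genes of the pathway give the surroundings of these values. Of 52 further proteases of the same family, 1 passed and was lower, Cfd (adipsin, a complement protease made by fat cells, -5.95 ± 0.65, adjusted p = 0.00235), and their median was -0.09. The cytotoxic granule protease gene Gzma had -0.77 ± 0.09 (adjusted p = 0.0625). None of 45 inhibitor genes passed, with 5 higher and 9 lower at an unadjusted p under 0.05 (12% and 14.3% of all genes) and a median of -0.15. The smallest p-values in that list were those of the alpha-1-antitrypsin genes, near-identical copies of each other, with Serpina1c at -1.81 ± 0.51 (adjusted p = 0.0541), Serpina1e at -1.45 ± 0.51 and Serpina1a at -1.57 ± 0.57. None of 26 substrates and receptors passed, with 4 in each direction at an unadjusted p under 0.05, beside the same shares of all genes. The PAR2 gene F2rl1 had 0.95, 1.0 and 0.78 (mean 0.91 ± 0.11, adjusted p = 0.0543), high on each array, followed by the kininogen gene Kng2 (-0.58 ± 0.09) and Hjv, the hemojuvelin gene (0.58 ± 0.21). The further marker lists, of Paneth, goblet and salivary gland cells and of enterocytes, had medians of 0.06, 0.02, -0.06 and -0.01 and no gene past the threshold. These medians hide differences between arrays and genes. Array medians were -0.29, 1.04 and -0.12 for Paneth and -0.07, 0.86 and -0.12 for goblet markers. Among the Paneth markers Reg3g had 4.7, 0.6 and 4.8, whereas Ang4 had -3.4, 1.5 and -1.2.

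Promoters of 62 members were searched for short motifs, as a description of these windows. The letters ACAAAG and, counted together with these, the letters ACAATG belong to the known Sox binding motif. On either strand they stood in 24 of 62 member promoters (38.7%), beside 25.1% of 16416 promoters of genes tested. The share was 14 of 27 for Prss (51.9%), 6 of 24 for Klk (25%) and 4 of 11 for Tmprss genes (36.4%). Prss38 had no match, Prss32 had 1 at 240 bases before the start, and Tmprss15 had none. TATAAA on the gene's strand was in 5 of 62 (8.06%), beside 8.44% of all, Prss1 and Prss2 being among the 5. AGATAA, which Gata4 and its relatives bind, was in 7 (11.3%, beside 9.75%), on either strand. GTTAAT, part of the HNF1 motif, was in 4 (6.45%, beside 6.21%). Tmprss15 held it, read as ATTAAC, on the opposite strand at 44 bases before the start.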

How the data were processed

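RNA of Sox4 knockout and wild-type proximal jejunum shared each of 3 two-colour Agilent arrays, which form 1 group (replicates 1 to 3). The authors deposited a table of log ratios, read here as log2, with 62976 features per array; background correction, normalization and filters behind it are not given in the sources at hand. No source states the base or the direction: base 2 and knockout (Cy5, per the labels) over wild type (Cy3) are assumed, another base would change each fold, and Cy3 over Cy5 would turn every sign. Array medians were 0.007, 0.003 and 0.011, and no scaling was added.

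Feature names came from GEO's platform annotation, updated through a RefSeq table (GRCm38.p6) by accession (29036), symbol (2075) or synonym (349), 5 keeping old symbols; 31511 were unnamed here. A gene's features were averaged on each array. For each of 20738 genes limma 3.58.1 (R 4.3.3) tested the mean ratio for a difference from 0 (2 residual and 3.51 prior degrees of freedom, two-sided, Benjamini-Hochberg), so wild-type mice have no spread of their own in it and, with no dye swap, dye and genotype cannot be told apart. Samples are separate mice by their titles. No intensities were used, and 3 arrays limit the precision. The script was checked on simulated data. Promoters were aligned with biopython 1.88 (local, match 1, mismatch -1).

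Members and lists were chosen with earlier results of these data known. Named members are those past the threshold, the 12 highest and 12 lowest with 1 sign on all arrays, the one with the largest SD, and a list of members known in or near the gut, with the 3 genes of smallest p from each pathway list and the acinar and mast cell lists. Members outside these were named after their values were seen, to account for all. Further genes of the marker lists were also named after their values were seen. Alternatives were the median of features, quantile scaling, centring, robust or no moderation, single features, current symbols, anchored members, means and leaving out each array.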

Additional observations from a re-analysis of the deposited data

How the results depend on the processing

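The call of Prss38 held with the median of features, quantile normalization between arrays, centring on the named genes, robust moderation, single features and membership by current symbol, which adds Prss57 and Tmprss11g. Leaving out 1 array, the members called numbered 0 to 2 (0 without array 1, Prss38 and Prss16 without array 2, 0 without array 3) and all genes called 4 to 66, sharing 9, 25 and 4 with the 68. Without moderation of the spread 0 members and 1 gene passed, and Prss38 had an adjusted p of 0.216. The members' median ran from 0.02 to 0.06. The difference secreted minus membrane-bound, 0.0042, lay between -0.037 and 0.063 with medians, changing sign, and was 0.137 with means. Of the values of single named members under these alternatives, 365 kept their side of the threshold and moved by less than 1 SD, and 6 moved by more. The call of Prss38 was lost in 3 (without array 1 or 3, or without moderation) and that of Prss16 gained in 1. No paired analysis was possible because there is 1 group of arrays and so no second group to block with; each array's ratio already pairs a knockout with the wild type. Without intensities, features near background could not be set apart.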
